A study of Mus musculus with 25 samples.

Results

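Notch1, Notch2, Notch3, Jag1, Jag2, Dll1, Dll4, Hes1, Hey1 and Hey2 are 10 genes of Notch signaling. They were taken by name from the 56956 genes of the count table, with earlier results of these data known. They comprise 3 receptors, 4 ligands and 3 target genes. Their RNA was followed in the sciatic nerve of 2 mouse models of Charcot-Marie-Tooth disease type 1A, a demyelinating neuropathy caused by an extra copy of the myelin gene PMP22, and in their wildtype controls. C3 mice carry 5 extra copies of human PMP22 on C57BL/6J, and their controls, WT-C3, are C57BL/6J mice. C22 mice carry 10 extra human copies on FVB/NRJ, and their controls, WT-C22, are FVB/NRJ mice. The transgenes were held heterozygously. The last group, C3-cJunKO, is labelled C3-PMP22 c-JunP0Cre. It carries the C3 transgene and lacks the transcription factor c-Jun in Schwann cells, through Cre driven by the P0 promoter of the Schwann cell lineage. The labels do not give the strain of this group, and the series holds no group with the Cre or the floxed Jun alone. All mice were untreated, and each group was sampled at 5 ages (3, 5, 7, 9 or 12 weeks). Each library pooled the nerves of 4 to 5 males and females of 1 group and age, giving 5 groups of 5 libraries. The 5 ages therefore stand as the replicates of a group in the comparisons, and copy number and strain change together between C3 and C22.

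Notch signaling passes between touching cells. A Delta-like or Jagged ligand on one cell binds a Notch receptor on its neighbour, the receptor is cut by an ADAM protease and by gamma-secretase, and the freed intracellular domain enters the nucleus, where it joins the DNA-binding protein RBPJ and a Mastermind coactivator to switch on Hes and Hey genes, which encode repressors. In peripheral nerve Notch1 is known from the immature Schwann cell, where it promotes Schwann cell formation and proliferation and opposes myelination. In vessels Dll4 and Hey2 are known from arterial endothelium, Notch3 from pericytes and smooth muscle, and Jag1 from both. A piece of nerve holds all of these cells, so a level below is a sum over them.

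The promoters of the 4 members with the largest changes in C22 nerve (Notch1, Notch2, Dll4 and Hey2) are shown to place the genes and to mark where the core letters of an RBPJ site occur. Sequences are from RefSeq on build GRCm38.p6, which is not the GRCm39 build of the counts, and 8 of the 10 genes had an entry there, with 9 start sites in all. Hes1 and Hey1 had none. Each line runs 5′ to 3′ on the strand of the gene from 250 bases before the start site to 10 bases after it, and capitals mark TGGGAA on either strand. Notch1 lies at chr2:26503813-26504072 on the minus strand, Notch2 at chr3:98013288-98013547 on the plus strand, Dll4 at chr2:119325534-119325793 on the plus strand and Hey2 at chr10:30842774-30843033 on the minus strand.
Notch1: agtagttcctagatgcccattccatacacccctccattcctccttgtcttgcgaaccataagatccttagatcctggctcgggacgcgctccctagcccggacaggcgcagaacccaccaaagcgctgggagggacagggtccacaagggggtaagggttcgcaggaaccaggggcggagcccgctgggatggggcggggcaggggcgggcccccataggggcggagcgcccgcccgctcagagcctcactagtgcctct
Notch2: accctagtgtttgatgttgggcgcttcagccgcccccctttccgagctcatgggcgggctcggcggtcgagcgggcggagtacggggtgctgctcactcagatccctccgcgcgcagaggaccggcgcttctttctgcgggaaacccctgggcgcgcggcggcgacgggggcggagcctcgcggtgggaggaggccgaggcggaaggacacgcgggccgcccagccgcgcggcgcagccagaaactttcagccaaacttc
Dll4: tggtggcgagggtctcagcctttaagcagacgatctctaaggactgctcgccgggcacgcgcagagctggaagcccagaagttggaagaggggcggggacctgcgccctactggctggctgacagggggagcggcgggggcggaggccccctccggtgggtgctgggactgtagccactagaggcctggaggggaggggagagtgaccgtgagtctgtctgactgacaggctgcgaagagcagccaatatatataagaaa
Hey2: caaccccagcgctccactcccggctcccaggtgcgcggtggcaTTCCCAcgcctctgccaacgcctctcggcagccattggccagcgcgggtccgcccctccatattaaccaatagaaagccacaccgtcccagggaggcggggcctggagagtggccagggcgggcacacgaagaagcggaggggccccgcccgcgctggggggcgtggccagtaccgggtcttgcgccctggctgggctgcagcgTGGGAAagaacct
The Hey2 promoter held TGGGAA or its complement 2 times, with the first base at -207 and at -3 from the start site. None of the other 8 start sites of the listed genes held it within 250 bases before and 50 bases after the start. Over all 32851 promoters of that length 25.6% held the letters at least once and 3.79% at least 2 times. The letters TGANTCA, an AP-1 site of the kind that c-Jun binds, occurred once among these promoters, at -109 of the second start site of Dll1, against 7.81% of all promoters. CACGTG, an E-box, was in none of them and in 7.15% of all promoters. TGANTCA and CACGTG read the same on both strands, and no match overlapped another.

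Library depth ran from 2140142 to 49072746 counts on genes, with a median of 24663235. The C3 library of 9 weeks was the shallowest and held 287 counts of Notch1, 62 of Hes1, 11 of Dll1 and 7 of Hey2, against a highest count in C3 of 6296, 607, 289 and 227. Values below are counts per 1000000 counts after normalization by the trimmed mean of M values over all 25 libraries (CPM), and lists of 5 run from 3 through 5, 7 and 9 to 12 weeks. Differences were tested on counts with the quasi-likelihood test of edgeR, group being the only term, with Benjamini-Hochberg adjustment of p over 13993 genes. All 10 genes passed the filter on low counts. Jun was at 26.3 to 31.7 CPM in C3-cJunKO, 93.8 to 125 in C3, 51.3 to 72.4 in WT-C3, 135 to 182 in C22 and 38.2 to 76.4 in WT-C22. Human PMP22 was at 10106 to 13936 CPM in C3, 9762 to 13903 in C22 and 7867 to 16217 in C3-cJunKO, and at 1 to 83 counts in the 10 libraries without a transgene. Jun and the presence of the transgene thus went the way of the labels, while the level of human PMP22 was not higher in C22, labelled with 10 extra copies, than in C3, labelled with 5.

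Notch1 was the one gene of the 10 that was higher in both models than in their wildtype. It rose 1.61-fold in C3 and 1.63-fold in C22. In C22 the other receptors Notch2 and Notch3, the ligands Jag2 and Dll4 and the target Hey2 fell, while in C3 no further member passed the test. Among all genes tested 42.4% passed in C22 and 23.9% in C3. Only Notch2 had a change that differed between the models by test. The calls of Notch3, Jag2 and Hey2 were lost with library size as the only scaling. Those of Notch3 and Hey2 were also lost when certain single libraries were left out. Between C3-cJunKO and C3 no member passed the test, which 0.55% of all genes passed.

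WT-C3 nerve had Notch1 at 90.7, 84.8, 86.1, 59.1 and 60.0 CPM. C3 nerve had it at 126, 131, 126, 134 and 99.6 CPM. All 5 C3 libraries lay above all 5 WT-C3 libraries, and the C3 library nearest to the wildtype was that of 12 weeks. On the log2 scale the rise was 0.69 ± 0.13 (SE, n = 5 per group, adjusted p = 0.00384 by edgeR), with a 95% interval of 0.40 to 0.98. WT-C22 nerve had Notch1 at 104, 80.2, 97.2, 88.9 and 85.4 CPM. C22 nerve had it at 156, 142, 155, 149 and 144 CPM. These groups did not overlap at any age either, and the C22 libraries spread less than those of any other group, with an SD of 6.29 CPM around 149. The rise was 0.71 ± 0.07 on the log2 scale (SE, n = 5 per group, adjusted p = 2.08e-05 by edgeR). The change in C22 minus that in C3 was -0.00 on the log2 scale, with a 95% interval of -0.34 to 0.33. Differences within that interval are compatible with these libraries. Of all genes tested, 23.9% passed the test in C3 and 12.5% passed as higher, and 42.4% passed in C22 with 21.9% higher. Libraries of the model lay above those of the wildtype without overlap for 9.27% of genes in C3 and 16.1% in C22. In a piece of nerve, fewer cells of a type and less RNA per cell cannot be told apart, here and in all results that follow.

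**Figure D1:**
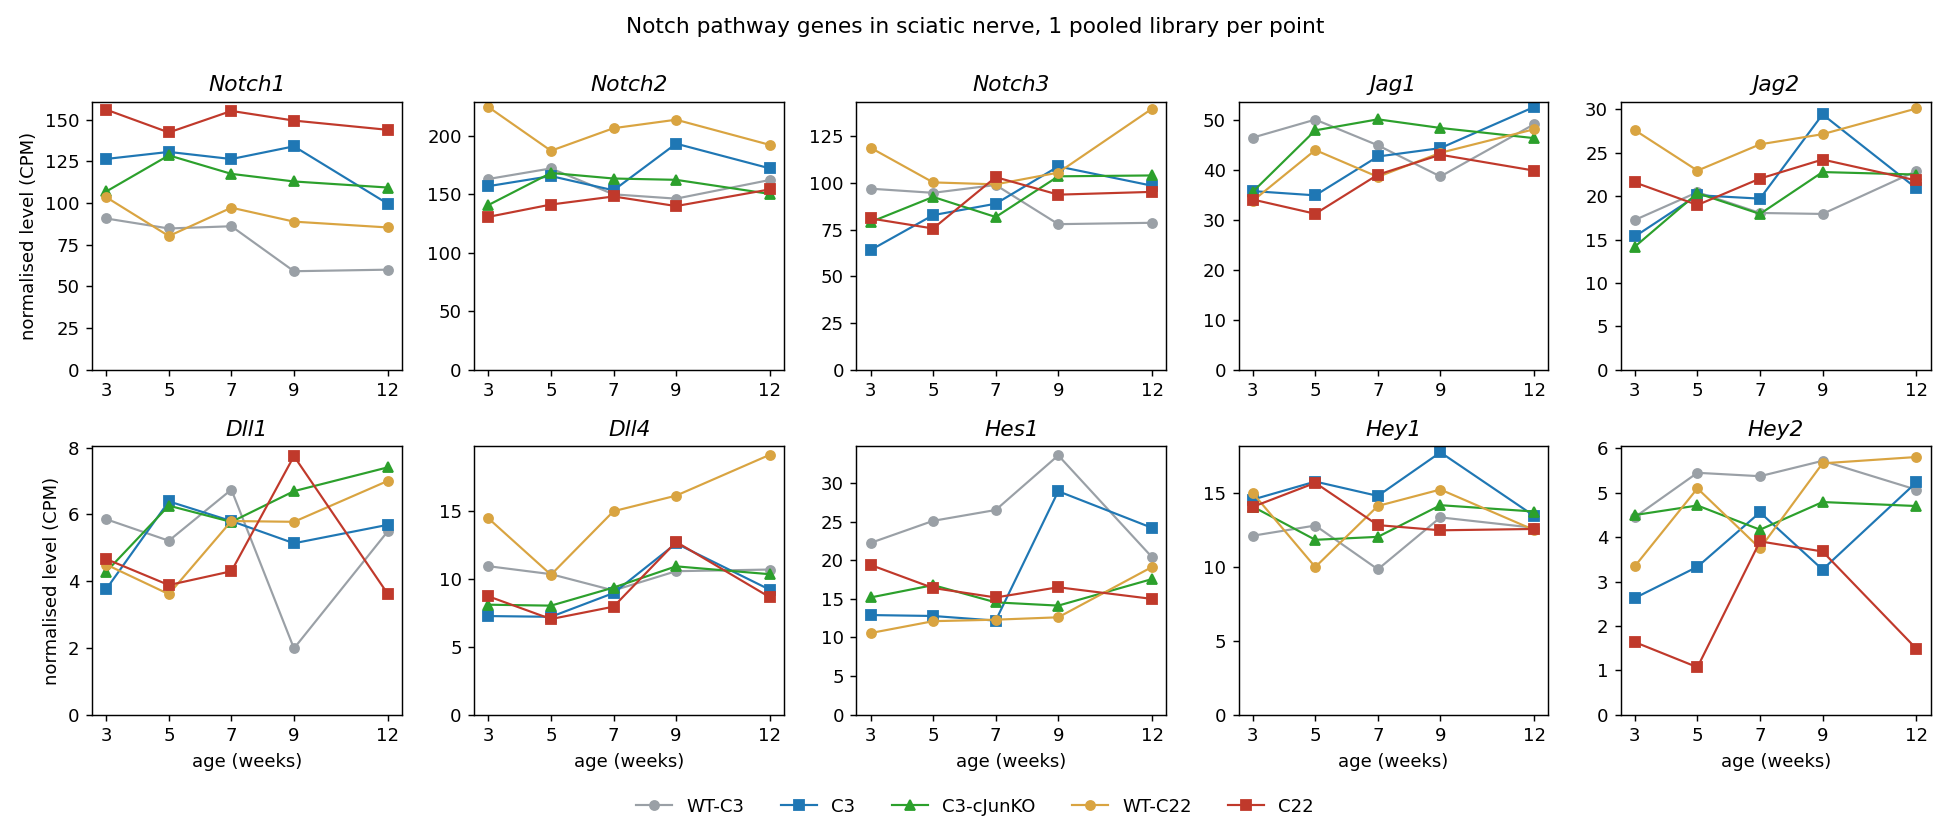
Normalised level in CPM (vertical axes, each from 0) of the 10 genes against age in weeks, 1 pooled library per point and 1 colour per group. Notch1 lies at 142 to 156 CPM in C22 and at 59.1 to 104 CPM in the wildtypes, and Hes1 in C3 steps from 12.2 CPM at 7 weeks to 29.0 at 9 weeks.

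Notch2, the most abundant receptor per length of exon in every group, moved in the opposite direction in C22. WT-C22 nerve had 225, 187, 207, 214 and 192 CPM, and C22 nerve 131, 141, 148, 140.0 and 154 CPM. No C22 library reached the lowest WT-C22 library, as for 14.5% of all genes. The log2 fold change was -0.53 ± 0.07 (SE, n = 5 per group, adjusted p = 0.000139 by edgeR). In C3 nerve Notch2 was at 157, 166, 153, 193 and 172 CPM, against 163, 172, 150.0, 146 and 162 CPM in WT-C3. These ranges overlapped, and the log2 fold change of 0.08 had a 95% interval of -0.09 to 0.25. The difference between the changes was -0.62 ± 0.10 on the log2 scale (SE, 5 libraries in each of 4 groups, adjusted p = 0.000345 by edgeR). Notch2 was the only one of the 10 genes whose change differed between the models by this test, against 12.1% of all genes, 7.31% with the lower and 4.75% with the higher change in C22.

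Notch3 fell in C22 by a small margin. WT-C22 nerve had 119, 100.3, 99.2, 106 and 139.8 CPM, and C22 nerve 81.0, 75.6, 103, 93.7 and 95.2 CPM. The C22 library of 7 weeks lay within the wildtype range. This was a log2 fold change of -0.34 ± 0.11 (SE, n = 5 per group, adjusted p = 0.0306 by edgeR), and the call was lost when 1 of 4 libraries was left out (C22 of 3 or 5 weeks, WT-C22 of 3 or 12 weeks), with adjusted p values up to 0.0732 over all libraries left out in turn, or when no filter on low counts was applied (adjusted p = 0.0676). In C3 nerve Notch3 was at 64.1, 82.8, 88.9, 109 and 98.5 CPM, around WT-C3 values of 96.9, 94.7, 98.9, 77.9 and 78.7 CPM. Neither group stood above the other (log2 fold change -0.03, 95% interval -0.31 to 0.25).

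The balance of the receptors was read within each library as the ratio of Notch1 to Notch2, each per kilobase of exon, which does not depend on depth or scaling. The ratio ran from 0.293 to 0.454 in WT-C3 and from 0.458 to 0.652 in C3, with medians of 0.390 and 0.624. It ran from 0.329 to 0.372 in WT-C22 and from 0.739 to 0.945 in C22, with medians of 0.351 and 0.829. C3-cJunKO lay at 0.550 to 0.605 with a median of 0.575, inside the range of C3. The ratio was made after both genes had been seen to differ and is given as a description. As a share of the 3 receptors per kilobase, Notch1 had a median of 18.8% in WT-C3, 27.4% in C3, 25.9% in C3-cJunKO, 16.9% in WT-C22 and 31.5% in C22.

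**Figure D2:**
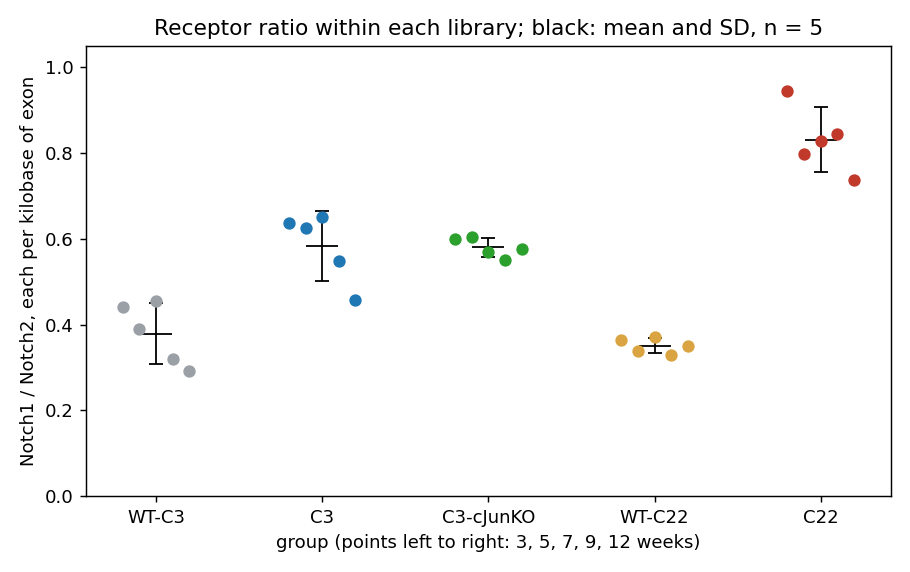
Ratio of Notch1 to Notch2, each per kilobase of exon (vertical axis, no unit), in every library of the 5 groups, points left to right from 3 to 12 weeks, with mean and SD in black (n = 5). The C22 libraries (0.739 to 0.945) lie above all others, and both wildtypes lie at or under 0.454.

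Among the ligands, Dll4 and Jag2 were lower in C22 than in WT-C22 and none passed the test in C3. Dll4, the Delta-like ligand of sprouting and arterial endothelium, was at 14.5, 10.3, 15.0, 16.1 and 19.1 CPM in WT-C22 and at 8.71, 7.04, 7.95, 12.7 and 8.64 CPM in C22. It was lower in C22 at all 5 ages, although C22 at 9 weeks exceeded WT-C22 at 5 weeks. Its log2 fold change was -0.75 ± 0.18 (SE, n = 5 per group, adjusted p = 0.00605 by edgeR). In C3 Dll4 was at 7.26, 7.21, 8.96, 12.6 and 9.20 CPM, and in WT-C3 at 10.9, 10.3, 9.15, 10.6 and 10.7 CPM. The C3 value was the lower at 4 of 5 ages, but the change of -0.26 did not pass (95% interval -0.57 to 0.06, adjusted p = 0.218 by edgeR with n = 5 per group). The change in C22 minus that in C3 was -0.50 and did not pass either (95% interval -1.01 to 0.00, adjusted p = 0.205 by edgeR).

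Jag2, the second Jagged ligand, was at 27.6, 22.9, 26.0, 27.1 and 30.1 CPM in WT-C22 and at 21.6, 19.0, 22.0, 24.2 and 21.8 CPM in C22. The 2 groups overlapped only where C22 at 9 weeks exceeded WT-C22 at 5 weeks. Jag2 had a log2 fold change of -0.31 ± 0.08 (SE, n = 5 per group, adjusted p = 0.0115 by edgeR, and 0.0607 with all 25 libraries in 1 fit). C3 nerve ran from 15.4 to 29.4 CPM and WT-C3 nerve from 17.3 to 22.9 CPM, with a log2 fold change of 0.07 (95% interval -0.24 to 0.39). The highest C3 value was from the shallow library of 9 weeks.

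Jag1, the ligand with the highest level per kilobase in every group, was at 33.8, 44.0, 38.6, 43.4 and 48.1 CPM in WT-C22 and at 34.1, 31.2, 39.0, 43.0 and 39.9 CPM in C22. The ranges overlapped, and the log2 fold change was -0.16 with a 95% interval of -0.40 to 0.08. WT-C3 had 38.7 to 50.1 CPM and C3 34.9 to 52.6 CPM, and here the change was -0.13 with an interval of -0.40 to 0.14. Jag1 made up a median of 54.8% of the 4 ligands per kilobase in WT-C3, 53.5% in C3, 54.9% in C3-cJunKO, 43.5% in WT-C22 and 49.98% in C22. Dll1, a Delta-like ligand, was the least abundant ligand, at 1.99 to 7.75 CPM over the 25 libraries. Its change was 0.09 in C3 (95% interval -0.50 to 0.69) and -0.16 in C22 (-0.67 to 0.34). Dll1 overlaps Fam120b on the opposite strand, which was at a mean of 49.4 CPM against 5.36 for Dll1, and the strand setting of the counting is not given in the sources used here, so the level of Dll1 is uncertain.

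**Figure D3:**
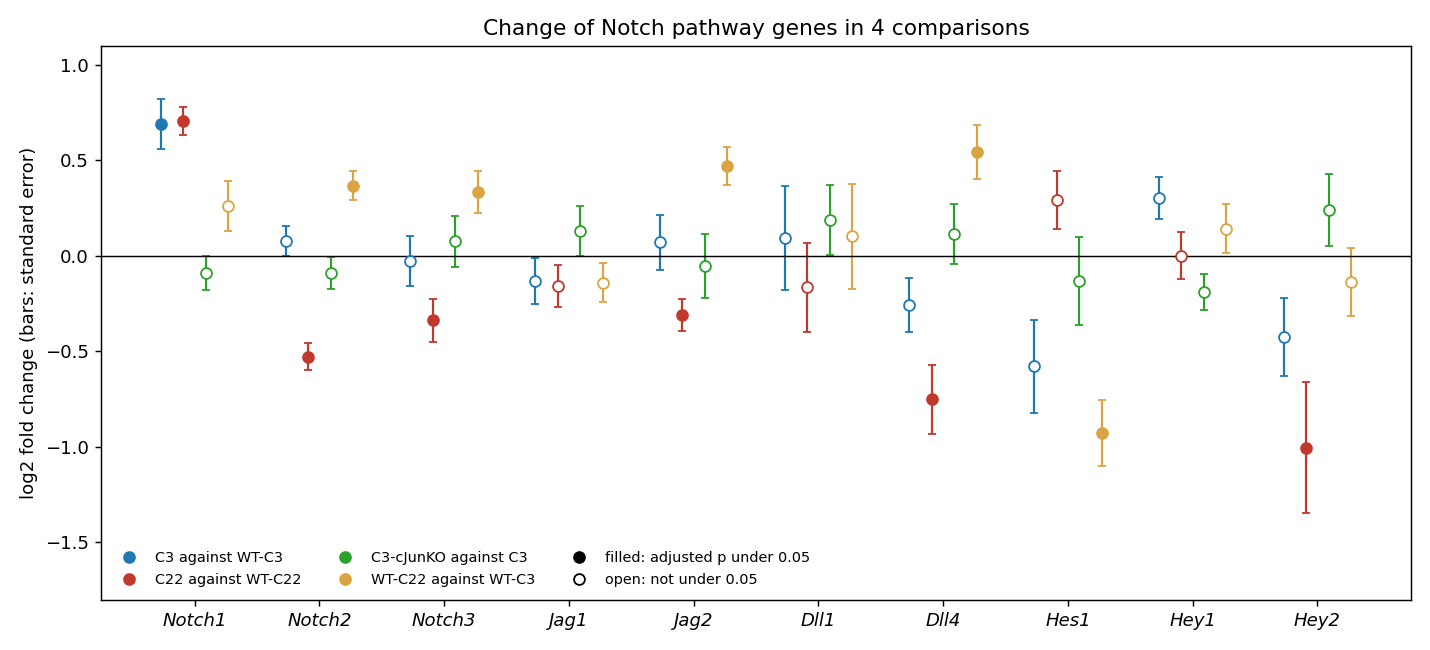
Log2 fold change (vertical axis, bars are standard errors) of each gene in 4 comparisons of 5 against 5 libraries, filled where the adjusted p was under 0.05. Notch1 is at 0.69 and 0.71 in the models, C3-cJunKO against C3 has no filled point, and Notch2, Notch3, Jag2 and Dll4 are filled below 0 in C22 against WT-C22 and above 0 in WT-C22 against WT-C3.

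Of the targets, Hey2 fell in C22 and neither Hes1 nor Hey1 passed the test in a model against its wildtype. Hey2, a repressor of arterial and smooth muscle cells, was at 3.35, 5.10, 3.75, 5.66 and 5.81 CPM in WT-C22 and at 1.63, 1.07, 3.90, 3.68 and 1.48 CPM in C22. The C22 libraries of 3, 5 and 12 weeks lay below all wildtype libraries and the other two within their range. Hey2 fell to 0.499-fold (SE 0.35 on the log2 scale, n = 5 per group, adjusted p = 0.0353 by edgeR), resting on 22 to 109 counts in C22 and 48 to 232 in WT-C22. Leaving out any of 6 libraries ended this call, namely those of 3, 5 and 12 weeks of C22 and of 5, 9 and 12 weeks of WT-C22, and the adjusted p over all left-out libraries ran to 0.0846. In C3 Hey2 was at 2.63, 3.33, 4.56, 3.27 and 5.24 CPM and in WT-C3 at 4.45, 5.45, 5.37, 5.72 and 5.07 CPM, a change of -0.42 that did not pass (adjusted p = 0.149 by edgeR with n = 5 per group, and 0.0498 without the C3 library of 12 weeks).

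Hes1, the basic helix-loop-helix repressor most often read as an output of Notch, was at 22.3, 25.1, 26.5, 33.6 and 20.4 CPM in WT-C3. C3 nerve had 12.9, 12.8, 12.2, 29.0 and 24.2 CPM. C3 lay below every wildtype library at 3, 5 and 7 weeks, and within the wildtype range at 9 and 12 weeks. Over all ages the log2 fold change was -0.58 ± 0.24 (SE, n = 5 per group, adjusted p = 0.106 by edgeR). Without the C3 library of 9 weeks it was -0.72 (adjusted p = 0.0395 by edgeR), and without that of 12 weeks -0.78 (adjusted p = 0.0316 by edgeR). With all 25 libraries in 1 fit it was -0.58 and passed (adjusted p = 0.0342 by edgeR). In WT-C22 Hes1 was at 10.6, 12.1, 12.3, 12.6 and 19.1 CPM, and in C22 at 19.4, 16.4, 15.2, 16.5 and 15.0 CPM. C22 was above WT-C22 at 4 of 5 ages and below it at 12 weeks. Its log2 fold change was 0.29 (adjusted p = 0.143 by edgeR with n = 5 per group), and without the WT-C22 library of 12 weeks 0.47 (adjusted p = 0.00384 by edgeR). The difference between the changes was 0.85 ± 0.30 (SE, 5 libraries in each of 4 groups, adjusted p = 0.0756 by edgeR), and it passed with DESeq2 (adjusted p = 0.0452) and without the C3 library of 9 weeks (0.997, adjusted p = 0.0219 by edgeR), without that of 12 weeks (1.06, adjusted p = 0.0204) or without WT-C22 at 12 weeks (1.02, adjusted p = 0.0247).

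Hey1, the other Hey repressor, was at 12.1, 12.8, 9.83, 13.3 and 12.6 CPM in WT-C3 and at 14.6, 15.8, 14.8, 17.7 and 13.4 CPM in C3. All C3 libraries lay above all WT-C3 libraries, the C3 value of 12 weeks only just above the highest wildtype value. The log2 fold change of 0.30 ± 0.11 (SE, n = 5 per group) had an adjusted p of 0.0598 by edgeR, and without the C3 library of 12 weeks 0.0468. Hey1 in C3 also passed by edgeR with library size as the only scaling (adjusted p = 0.0260) and with all 25 libraries in 1 fit (adjusted p = 0.0406). In C22 Hey1 ranged from 12.5 to 15.7 CPM, against 9.99 to 15.2 CPM in WT-C22, with a change of 0.00 and a 95% interval of -0.26 to 0.27. Over the 10 genes the median log2 fold change was 0.02 in C3 and -0.24 in C22, beside medians of 0.001 and 0.005 over all genes tested. In C3 1 of the 10 passed, higher, and in C22 6 passed, 1 higher and 5 lower, where 11.4% of all genes passed as lower in C3 and 20.5% in C22. With library size as the only scaling, which moved the median of all genes by 0.17 in C22, Notch3, Jag2 and Hey2 stayed lower without passing, Hes1 passed as higher, and Notch2 and Dll4 remained as called. Of all genes called, the share that was higher then went from 51.7% to 76.0% in C22, from 52.1% to 71.4% in C3, from 47.7% to 66.7% in C3-cJunKO against WT-C3 and from 39.4% to 63.1% for the difference between the models.

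The 2 wildtypes, which differ in strain, differed in 5 of these genes. WT-C22 nerve was above WT-C3 in Notch2 (log2 fold change 0.37, adjusted p = 0.00381 by edgeR, here and below with n = 5 per group), in Jag2 (0.47, adjusted p = 0.00497) and in Dll4 (0.55, adjusted p = 0.0162). Notch3 was above by 0.34 with an adjusted p of 0.0486 by edgeR, a call that 8 of the 10 single libraries left out ended. Age as a block ended this call too (adjusted p = 0.0557 by edgeR). Hes1 was lower in WT-C22, by a log2 fold change of -0.93 (adjusted p = 0.00244 by edgeR), and no WT-C22 library reached the lowest WT-C3 library, as for 9.35% of all genes. Notch2, Notch3 and Jag2 were higher without overlap, as 7.6% of genes were. In all, 5 of 10 members passed, 4 higher and 1 lower, where 21.7% of all genes did, 9.99% higher and 11.7% lower. Notch2, Notch3, Jag2 and Dll4 were also lower in C22 than in WT-C22, as was Hey2, which did not pass between the wildtypes, and both comparisons use the WT-C22 libraries. Set beside WT-C3, the mean level in C22 was 143 CPM against 159 for Notch2, 89.7 against 89.4 for Notch3, 21.7 against 19.3 for Jag2 and 9.01 against 10.3 for Dll4. For Notch1 the means were 76.1 CPM in WT-C3, 91.0 in WT-C22, 123 in C3 and 149 in C22, and the wildtypes differed by 0.26 on the log2 scale without passing (adjusted p = 0.187 by edgeR).

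C3-cJunKO was compared with C3, from which its label differs by the loss of c-Jun in Schwann cells. C3-cJunKO nerve had Notch1 at 107, 129, 118, 113 and 109 CPM, within the range of C3. The log2 fold change against C3 was -0.09, with a 95% interval of -0.29 to 0.10. None of the 10 genes passed the edgeR test, which 0.55% of all genes passed (77 genes, 0.222% higher and 0.329% lower), and none had an unadjusted p under 0.05. With DESeq2 250 genes passed and again none of the 10. With the age as a block, 273 genes passed and no member. The 95% interval of the log2 fold change was -0.27 to 0.09 for Notch2, -0.40 to 0.02 for Hey1 and -0.64 to 0.37 for Hes1. These intervals come from the fit with group as the only term, and changes within them are compatible with these libraries. Hes1 was at 15.2, 16.8, 14.6, 14.1 and 17.6 CPM in C3-cJunKO, without the high values that C3 had at 9 and 12 weeks. In comparison to WT-C3, C3-cJunKO was higher in Notch1 (log2 fold change 0.60 ± 0.13, SE, n = 5 per group, adjusted p = 0.00535 by edgeR) and lower in Hes1 (-0.71 ± 0.13, SE, adjusted p = 0.00212), both without overlap between libraries. Of all genes 21.5% passed, 10.3% higher and 11.3% lower, and libraries did not overlap for 8.08% of genes higher and 8.24% lower. This comparison and that of C3 share the WT-C3 libraries, so their values are set side by side only. The other members of C3-cJunKO ranged from 141 to 168 CPM for Notch2, 79.1 to 104 for Notch3, 35.6 to 50.1 for Jag1, 14.2 to 22.8 for Jag2, 4.29 to 7.41 for Dll1, 8.03 to 10.9 for Dll4, 11.8 to 14.2 for Hey1 and 4.17 to 4.79 for Hey2.

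Levels of different genes were ordered per kilobase of exon, as mean CPM per kilobase over 5 libraries. In WT-C3 the order was Notch2 (14.1), Notch3 (9.93), Jag1 (7.70), Hes1 (7.58), Notch1 (5.35), Jag2 (2.73), Dll4 (2.62), Hey1 (2.53), Hey2 (1.06) and Dll1 (1.02). Neighbours whose libraries overlapped were Jag1 with Hes1, Hes1 with Notch1, Jag2 with Dll4, Dll4 with Hey1, and Hey2 with Dll1. In C22 the order was Notch2 (12.7), Notch1 (10.5), Notch3 (9.96), Jag1 (6.28), Hes1 (4.89), Jag2 (3.06), Hey1 (2.82), Dll4 (2.28), Dll1 (0.976) and Hey2 (0.480). In WT-C22, the wildtype of the same strain, the order was Notch2 (18.2), Notch3 (12.5), Jag1 (6.98), Notch1 (6.396), Hes1 (3.95), Dll4 (3.80), Jag2 (3.77), Hey1 (2.79), Dll1 (1.08) and Hey2 (0.965). There Notch1 overlapped with Jag1 and with Hes1 and lay below Notch3, while in C22 it overlapped with Notch3. Neighbours that overlapped in C22 were Notch1 with Notch3, Jag1 with Hes1, Jag2 with Hey1, Hey1 with Dll4, and Dll1 with Hey2.

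Across the 5 ages no member passed the spline test of an age effect in any of the 5 groups, nor a test that 2 groups differed in their course (edgeR, 15298 genes tested), which 0.0261% of genes passed for C3 and WT-C3, 0.0523% for C22 and WT-C22 and 0.0588% for C3-cJunKO and C3. At an unadjusted p under 0.05 there were 1 member in WT-C3, 3 in C3, 2 in C3-cJunKO, 2 in WT-C22 and 3 in C22. The DESeq2 likelihood ratio test passed Hes1 in C3 and no other, and the spline passed it too when the C3 library of 3, 5, 7 or 9 weeks was left out. In those spline fits C3 has as many coefficients as libraries, so the error comes wholly from the other groups. Of all genes 0.693% passed in WT-C3, 2.27% in C3, 3.38% in C3-cJunKO, 2.86% in WT-C22 and 0.752% in C22. As a straight line 2 members passed. Notch1 in WT-C3 had a slope of -0.08 ± 0.02 log2 per week (SE, 5 libraries, adjusted p = 0.0356 by edgeR), with its values of 9 and 12 weeks below those of 3 to 7 weeks. Hes1 in C3 had a slope of 0.12 ± 0.03 log2 per week (SE, 5 libraries, adjusted p = 0.0225 by edgeR, against 0.0602 for the spline). The slope of Hes1 did not differ between C3 and WT-C3 by the test (adjusted p = 0.670 by edgeR), which 0.0196% of genes passed. As a straight line 2.62% of all genes passed in WT-C3, 5.96% in C3, 5.97% in C3-cJunKO, 7.77% in WT-C22 and 0.784% in C22.

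The markers of other cells moved with several of these genes. Of 10 endothelial markers, Cdh5, Kdr, Tek, Egfl7, Emcn and Flt1 were lower in C22 than in WT-C22 and none was higher, and the sum of the list was 846 to 1169 CPM in WT-C22 and 602 to 951 CPM in C22. Of 9 markers of pericytes and smooth muscle, Pdgfrb, Rgs5, Kcnj8, Abcc9 and Tagln were lower and none higher, with sums of 1177 to 1919 CPM in WT-C22 and 705 to 1311 CPM in C22. The calls of Tek and Abcc9 were lost with library size as the only scaling. Of 6 arterial markers, Sox17 and Sema3g were lower, with sums of 273 to 371 CPM in WT-C22 and 193 to 260 CPM in C22. All 5 measured markers of the perineurium were lower as well, at 1564 to 2290 CPM in WT-C22 and 1048 to 1359 CPM in C22. No marker of these 4 lists was at 0 in all libraries of a group. For comparison, 20.5% of all genes were lower and 21.9% higher in C22, and 11.4% and 12.5% in C3. In C3, Egfl7 and Flt1 of the endothelial list (neither passed with library size only) and Rgs5, Kcnj8 and Tagln of the pericyte list were lower, Cspg4 was higher, and the sums overlapped (616 to 1015 CPM against 890 to 1038 CPM for endothelium). In C3, 3 of the 5 perineurial markers were lower and none higher, with a median log2 fold change of -0.56 and sums of 1459 to 1911 CPM against 1558 to 2344 CPM in WT-C3. The part of these markers in the lower Notch3, Jag2, Dll4 and Hey2 of C22 was not tested.

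Over the 25 libraries Hey2 and the summed pericyte and smooth muscle markers had a Pearson r of 0.895, and of 0.828 after the group means were removed. All r with markers were taken between log2 values. With the summed arterial markers r was 0.58 for Hey2 and 0.51 for Dll4, and 0.34 and 0.61 after removal. With the endothelial markers r ran from -0.526 for Notch1 to 0.808 for Hey2. It was 0.652 for Dll4, and 0.693 after removal of group means, and it was 0.772 and 0.755 for Jag1, which did not pass in C22. After removal it was 0.756 for Notch3, 0.726 for Jag2 and 0.668 for Dll1, of which Dll1 did not pass in C22. For Notch1 it was -0.0699 after removal. With the summed markers of immature and repair Schwann cells, Jun among them, r for Notch1 was 0.741, and 0.488 after removal. With those of myelinating Schwann cells it was -0.622, and 0.430 after removal. These values describe 25 libraries that share their depth, their scaling and the cell makeup of each nerve.

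**Figure D4:**
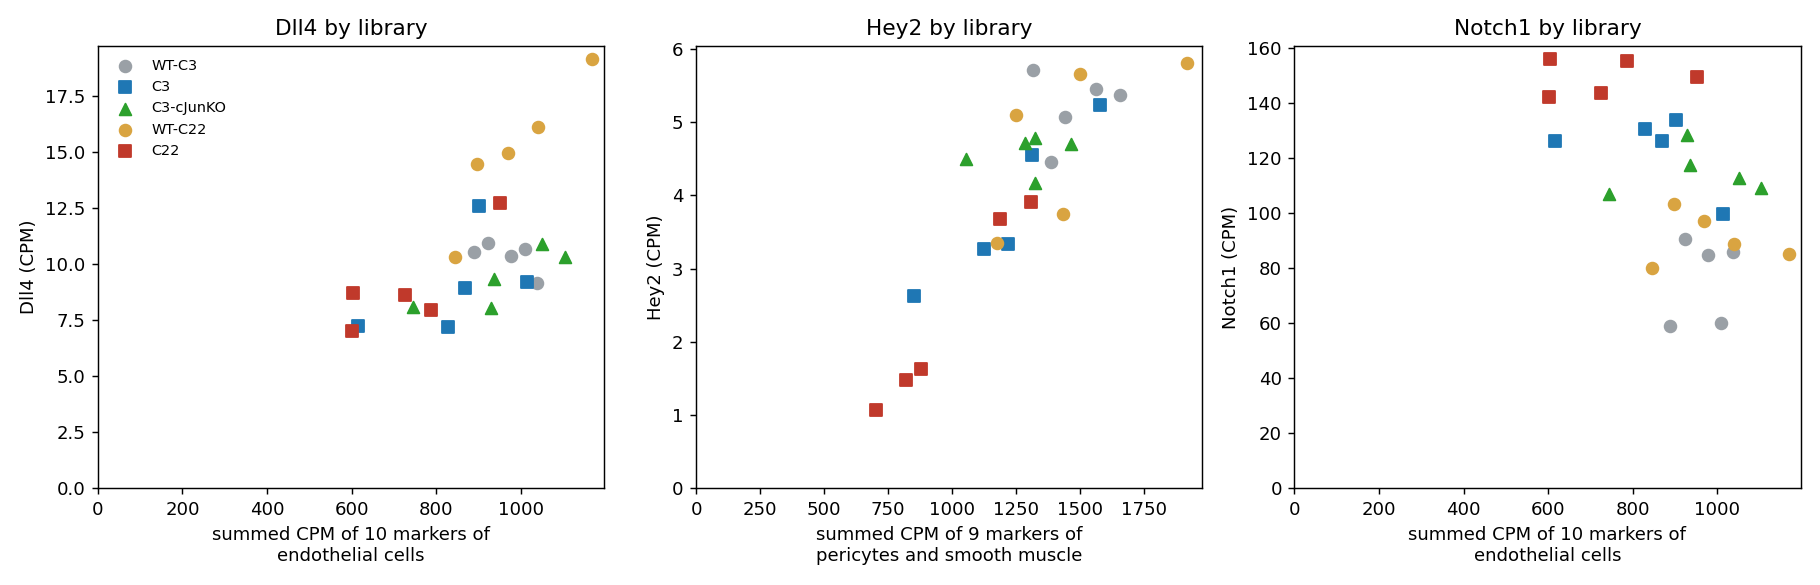
Level in CPM of Dll4, Hey2 and Notch1 (vertical axes) against the summed CPM of the markers of endothelial cells (10 genes, left and right panels) or of pericytes and smooth muscle (9 genes, middle panel), 1 point per library, coloured by group. Hey2 rises with its markers (r = 0.895 between log2 values over 25 libraries, the axes being untransformed). The C22 libraries hold the highest Notch1 values (142 to 156 CPM) at low to middle marker sums.

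The summed markers of immature and repair Schwann cells were higher in both models, as was Notch1. Their sum was lower in C3-cJunKO than in C3. This list includes Jun, which C3-cJunKO lacks in Schwann cells by its label, so part of that drop follows from the design. Part of the rise in the models is Jun too. It was at 93.8 to 125 CPM in C3 against 51.3 to 72.4 in WT-C3, and at 135 to 182 in C22 against 38.2 to 76.4 in WT-C22. Of 7 measured markers of this list, 6 were higher in C3 and none lower, and in C22 4 were higher and 2 lower. Their sum was 262 to 320 CPM in WT-C3, 515 to 675 in C3, 265 to 324 in WT-C22 and 384 to 540 in C22. In C3-cJunKO the sum was 328 to 380 CPM, with 2 of the 7 lower than in C3, namely Jun itself and Ngfr, the low-affinity neurotrophin receptor. Notch1 in C3-cJunKO was within the range of C3. All 5 proliferation markers were higher in both models. Of 8 markers of myelinating Schwann cells, 2 were higher and 2 lower in C3, and 2 higher and 4 lower in C22, with summed levels of 57364 to 100861 CPM in WT-C3, 38185 to 57469 in C3, 46073 to 94852 in WT-C22 and 25635 to 38925 in C22. Macrophage markers rose for 2 of 8 genes in C3 and for 3 of 8 in C22, where 1 fell. Of 7 fibroblast markers 1 fell in C3 and 2 in C22, and no marker of skeletal muscle or adipocytes passed in either model. These counts stand beside 12.5% of all genes higher and 11.4% lower in C3, and 21.9% and 20.5% in C22. The summed muscle markers ran from 5.56 to 8418 CPM over the libraries. The part of Schwann cell state in the higher Notch1 was not tested.

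The rest of the pathway was read from 50 further genes, of which 45 were measured. Dll3, Dlk2, Dner, Hes5 and Hes7 were under the filter. In C3 13 of the 45 were higher and 1 lower, in C22 14 were higher and 11 lower, beside 12.5% of all genes higher and 11.4% lower in C3 and 21.9% and 20.5% in C22. In C3-cJunKO against C3 none passed by edgeR with TMM, and 3 had an unadjusted p under 0.05 (Cntn1 was nearest, at -2.14 with an adjusted p of 0.0547 by edgeR, n = 5 per group). There 1 passed by DESeq2, and 1 passed as lower by edgeR with library size as the only scaling. With library size as the only scaling 20 were higher and 4 lower in C22 and 17 higher and 1 lower in C3, and no gene that had passed changed its direction. Without the C3 library of 9 weeks 14 were higher and 1 lower in C3. Over the 45 genes the median change was 0.10 for C3 and -0.05 for C22 on the log2 scale.

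In the nuclear complex of 8 genes, 4 were higher in C3 and 3 in C22, and none was lower, beside 12.5% and 21.9% of all genes higher. Maml3, a Mastermind coactivator, rose most, with a log2 fold change of 0.73 ± 0.13 in C3 (SE, n = 5 per group, adjusted p = 0.00281 by edgeR) and 1.33 ± 0.12 in C22 (adjusted p = 8.52e-06). The change was larger in C22 by 0.59 (adjusted p = 0.0479 by edgeR over 4 groups of n = 5), a call that was lost without the C3 library of 9 weeks. Maml1, another Mastermind coactivator, rose in both models, and the corepressor Spen rose in C3 by 0.46. Rbpj, the DNA-binding partner, did not pass in either model (-0.20 in C3 and -0.08 in C22), but was lower in WT-C22 than in WT-C3 by a log2 fold change of -1.21 (adjusted p = 8.27e-07 by edgeR with n = 5 per group). Rbpj has processed pseudogene copies with which reads may be shared, so its level is uncertain.

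In the group of other targets 3 of 5 measured genes were higher in each model and none lower, beside the same shares of all genes. They were Ccnd1, the cyclin of G1 phase, with 1.03 in C3 and 1.39 in C22, Myc, a growth-promoting transcription factor, with 0.61 and 0.58, and Hes6, a Hes family member, with 0.56 and 0.54 on the log2 scale. Hes6 did not pass in C3 without the library of 9 weeks. Ccnd1 was also lower in WT-C22 than in WT-C3, by -1.30. All are controlled by other pathways too. Heyl, the third Hey gene, did not pass in either model (-0.37 and -0.31).

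Of the 9 genes that cut the receptor on ligand binding, 3 were higher and 4 lower in C22, beside 21.9% and 20.5% of all genes. The proteases went apart there. Adam17 rose by 1.02 ± 0.14 (SE, n = 5 per group, adjusted p = 0.000159 by edgeR) and Adam10, the protease that acts on ligand-bound Notch, fell by 0.83 on the log2 scale (SE 0.13, adjusted p = 0.000447). In C3 neither passed, and of this group only Psenen, a subunit of gamma-secretase, was lower (-0.53, adjusted p = 0.0150 by edgeR with n = 5 per group). Within gamma-secretase, Aph1a rose in C22 by 0.36, with a larger change than in C3 (difference 0.41, adjusted p = 0.0335 by edgeR over 4 groups of n = 5), while Aph1b and Aph1c fell, calls that were lost with library size as the only scaling. Aph1b and Aph1c are near-identical paralogs between which reads may have been split, so their values are uncertain.

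Among inhibitors and turnover factors the models differed in 2 genes. Nrarp, a target gene whose product restrains Notch signaling, rose in C22 by 0.55 and was at -0.35 without passing in C3, a difference of 0.89 ± 0.19 (SE, adjusted p = 0.00448 by edgeR over 4 groups of n = 5). Dtx4, a Deltex ubiquitin ligase, rose in C3 by 0.34 and fell in C22 by 0.48 on the log2 scale, a difference of -0.84 ± 0.12 (SE, adjusted p = 5.4e-05 by edgeR). Over the 45 genes 4 differed between the models, 3 with the higher and 1 with the lower change in C22. Beside this, 12.1% of all genes differed, 4.75% with the higher and 7.31% with the lower change in C22. Lfng, the Fringe enzyme that modifies the receptor toward Delta-like ligands, rose in both, by 0.39 in C3 and 0.58 in C22, and Mib2, an endocytosis factor of ligands, by 0.37 and 0.24. Notch4, the receptor of endothelium, fell in C22 (-0.38, adjusted p = 0.0226 by edgeR with n = 5 per group). Of the noncanonical ligands, Dlk1 and Cntn1 fell in C22 by 1.12 and 0.66 on the log2 scale. The calls of Notch4 and Dlk1 were lost with library size as the only scaling.

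**Figure D5:**
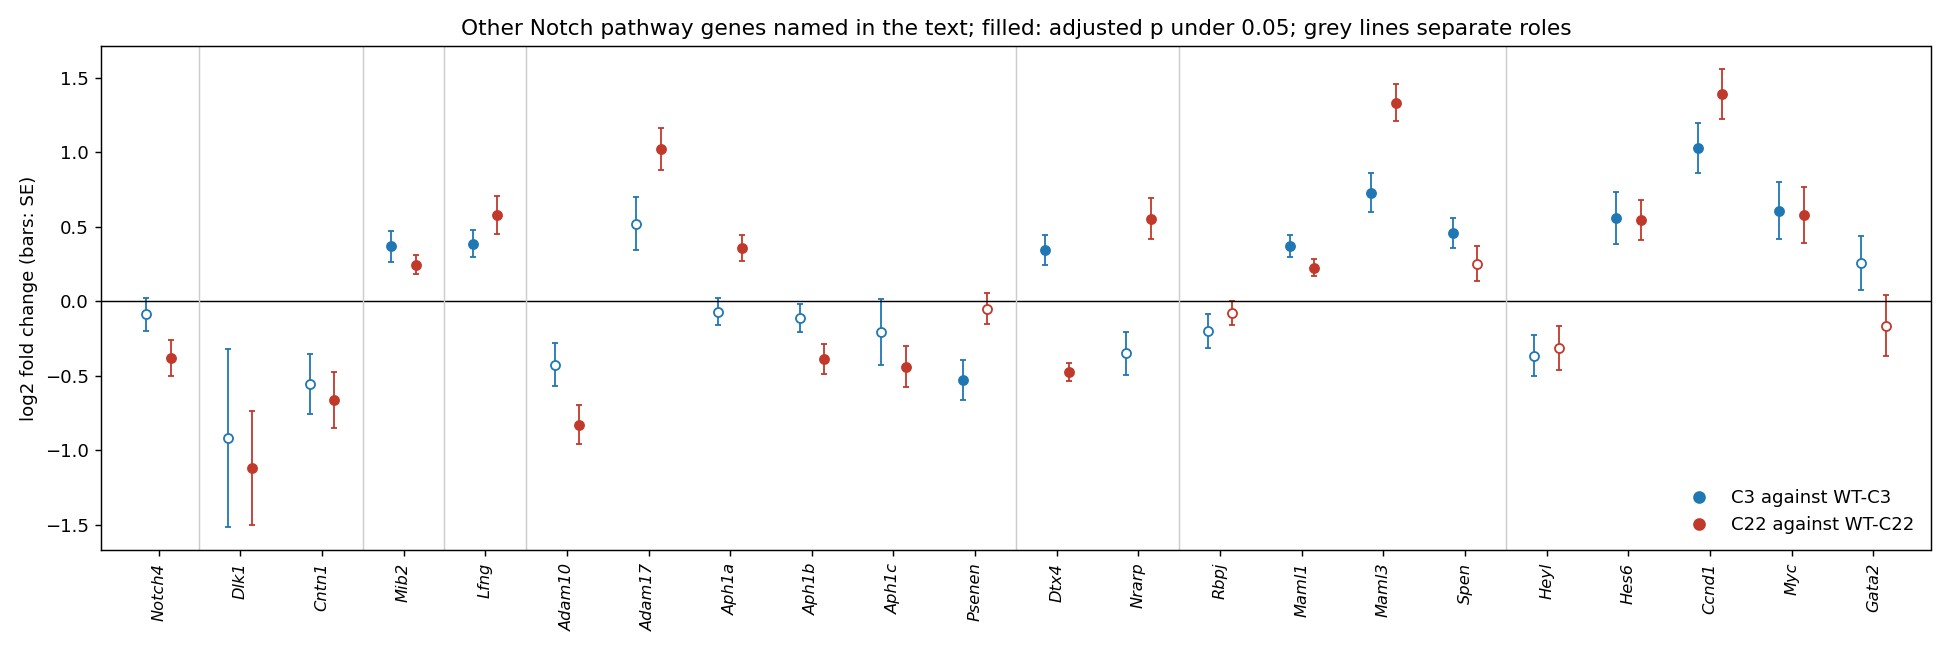
Log2 fold change (vertical axis, bars are standard errors) of the 22 other genes of the pathway named in the text in C3 against WT-C3 (blue) and C22 against WT-C22 (red), filled where the adjusted p was under 0.05, in the order receptor, ligands, ligand endocytosis, glycosylation, cleavage, inhibitors and turnover, nuclear complex and targets. Maml3 (0.73 and 1.33) and Ccnd1 (1.03 and 1.39) are filled above 0 in both models, and Adam10 (-0.83) and Dtx4 (-0.48) are filled below 0 in C22.

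C3-cJunKO nerve differed from WT-C3 in 15 of the 45 genes, 12 higher and 3 lower, beside 10.3% of all genes higher and 11.3% lower. Ccnd1, Maml3, Myc and Adam17 were the largest rises (0.82, 0.69, 0.60 and 0.57 on the log2 scale). Cntn1 fell the most, by 2.71 on the log2 scale (SE 0.39, adjusted p = 0.000432 by edgeR with n = 5 per group), followed by Psenen and Aph1c. Between the wildtypes 9 of the 45 differed, a share close to the 21.7% of all genes, with Gata2 and Notch4 higher in WT-C22 (0.80 and 0.45) and Aph1b, Ccnd1, Rbpj and Cntn1 the largest of 7 that were lower.

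The genes with the most similar course were sought for each member as the Pearson r of log2 CPM over the 25 libraries after group means were removed, among genes with a mean of at least 5 CPM. For Notch1 they were Tmem214 (0.847), Adgrl1 (0.835) and Dhx8 (0.833), and for Notch2 Prrc2b (0.876), Ubr4 (0.873) and Cables2 (0.854). Notch3 was closest to Lhx6 (0.841), Xkr8 (0.835) and Eng (0.833), and Dll4 to Fam110d (0.845), Pck2 (0.828) and Xkr8 (0.822). The nearest genes of Jag1 were Ehbp1l1 (0.925), Ebf3 (0.892) and Optn (0.874), of Jag2 Eps8l2 (0.895), Cracr2b (0.889) and Robo4 (0.882), and of Dll1 Piezo1 (0.843), Ece1 (0.796) and Cpne2 (0.785). Among the targets, Hes1 was closest to Gpx4-ps2 (0.849), Gadd45gip1 (0.834) and Jund (0.823), Hey1 to Stard3nl (0.804), Rpl19 (0.757) and Nsmce3 (0.755), and Hey2 to Itga8 (0.834), Cdh13 (0.813) and Rgs7bp (0.809). Between the members themselves the highest values were Jag2 with Dll4 (0.723) and Notch3 with Jag2 (0.693). The highest of many values are given, so they are high by choice, and libraries share depth, scaling and cell makeup.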

How the data were processed

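Poly(A) RNA of sciatic nerve was sequenced in 25 libraries, 1 per group and age, made with a directional kit from pooled nerves. Per the paper and the submitters' processing notes, the authors checked reads with FastQC 0.11.9, trimmed them with cutadapt 2.10, aligned them with STAR 2.7.5a to the mouse genome GRCm39, to which the human PMP22 locus had been added, removed duplicates with UMI-tools 1.1.1 and counted them with HTSeq 0.12.4 on genes of Ensembl 110. They deposited whole-number counts per gene with no normalization. The strand setting of the counting is not given in the sources used here. Of the 56956 genes counted, 15 were human. The lines of uncounted reads were left out (8.12% to 12.11% of fragments on no gene, 1.78% to 2.04% ambiguous, 2.76% to 3.93% aligned to several places). Symbols, exon lengths and overlaps came from GENCODE M39 on GRCm39 and matched 56323 of 56941 mouse genes.

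Tests were run with edgeR 4.0.16 and limma 3.58.1 in R 4.3.3 on 13993 genes whose log2 CPM exceeded 1 in 7 or more libraries (25%). Each comparison had its own TMM factors, and quasi-likelihood fits with group as the only term had 8 residual degrees of freedom for 2 groups. P values were adjusted over all genes kept, with a threshold of 0.05. All groups are 1 pool per age, so the p values measure the spread between ages of a group as well as between pools. Age was tested as a natural spline with 3 degrees of freedom in 1 fit of all 25 libraries (15298 genes kept by filterByExpr, 5 residual degrees of freedom). Levels are CPM with TMM over all libraries, divided by kilobases of exon where genes are compared. Intervals are 95%. The fits were tested on simulated counts.

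The ages can pair libraries of different groups. Deviations from group means were correlated at all 5 ages for C3-cJunKO and C3 (r of 0.438, 0.123, 0.347, 0.264 and 0.615), so this comparison was taken as paired by age and also run with age as a block. In the other comparisons at least 1 age had an r under 0.1. Other settings tried for the groups were size factors by median ratio, scaling by library size, no filter, filterByExpr, a joint fit of all libraries, DESeq2 1.42.0, age as a block and leaving out each library. For age they were a slope, 2 degrees of freedom, the filter used for the groups, size factors by median ratio, the DESeq2 likelihood ratio test and leaving out each library.

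The text names all 10 members, human PMP22 and Jun as checks of the labels, up to 4 other pathway genes per direction and comparison with the largest changes among those passing, and the 3 most similar genes per member. Genes named beyond this rule, the receptor ratio and the scaling of gene lists were chosen after their values were seen. The members, the lists and the markers were chosen with earlier results of these data known. Some pathway genes are not reported here.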

Additional observations from a re-analysis of the deposited data

Results flagged for a closer look

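Of 50 tests of 1 library against the other 4 of its group (10 genes in 5 groups), 4 found a library apart by Dixon's criterion, where chance gives about 1 in 20. Notch1 in C3 at 12 weeks was at 99.6 CPM, under the next library at 126 CPM. Jag1 in C3-cJunKO at 3 weeks was at 35.6 CPM, under the next at 46.4 CPM. Dll1 in C22 at 9 weeks was at 7.75 CPM, above the next at 4.66 CPM. Hes1 in WT-C22 at 12 weeks was at 19.1 CPM, above the next at 12.6 CPM. In the 2 models the change of Notch2 differed, by -0.62 on the log2 scale (adjusted p = 0.000345 by edgeR over 4 groups of n = 5), with the lower change in C22.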

How the results depend on the processing

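Notch1 was higher in C3, in C22 and in C3-cJunKO than in wildtype under each of the 7 other settings and without each library, Notch2 and Dll4 were lower in C22 throughout, and Notch2 kept its difference between the models. Each library is 1 pool at 1 age, so no spread between pools of the same age was measured. Hey2 and Dll1 had few counts, and the C3 library of 9 weeks was shallow. In the members, 388 single-gene values kept direction and call under settings other than leaving out a library, 6 came to pass, 8 ceased to pass and 18 turned in sign, none of these 18 passing the test. With 1 library left out the numbers were 625, 9, 18 and 48. The cause of these changes was not tested.

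Of the 10 members, C3 against WT-C3 had 2 called with library size only and 3 with all 25 libraries in 1 fit, in place of 1, and the difference between the models had 2 with either all 25 libraries or DESeq2, in place of 1. Over all genes, C3-cJunKO against C3 had 77 called, and 134 without a filter, 139 with all 25 libraries and 250 with DESeq2. The other pathway genes called with DESeq2 were 15 higher and 6 lower in C3 and 14 higher and 13 lower in C22.

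With the age as a block, the pairing by age gave 273 genes in C3-cJunKO against C3 and 0 members. In the other comparisons, where at least 1 age had an r under 0.1, the block ended the call of Notch3 between the wildtypes (adjusted p = 0.0557 by edgeR). It changed no other call of a member. Between the wildtypes r was 0.34, 0.65, 0.15, 0.54 and 0.046 from 3 to 12 weeks, all positive, so some ages varied together there as well.

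The sign of values near 0 turned as follows. With library size only, Notch3 in C3 was at 0.055, Jag1 and Dll1 in C22 at 0.0135 and 0.0042, Notch1 and Jag1 in the difference between the models at 0.107 and 0.0649, and Notch2 and Jag1 in C3-cJunKO against WT-C3 at 0.0724 and 0.0859. Hey1 in C22 was at -0.0096 with median-ratio factors, -0.0022 with filterByExpr and -0.0171 with DESeq2. Notch1 in the difference was at 0.0101 with median-ratio factors, 0.0265 without a filter, 0.0260 with filterByExpr, 0.0191 with all 25 libraries and 0.0103 with DESeq2. In C3-cJunKO against WT-C3 Notch2 was at 0.0198 without a filter, and Jag1 at 0.0302 without a filter and 0.00358 with filterByExpr.

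As an effect of age, 1 member was called in WT-C3 with a slope (Notch1) and 1 in C3 with a slope or with DESeq2 (Hes1), in place of 0. Genes called for age in WT-C3 went from 106 to 401 with a slope, 244 with 2 degrees of freedom and 379 with DESeq2. In C3 they went from 347 to 912 with a slope and 932 with DESeq2, and in C3-cJunKO from 517 to 913 and 987. In WT-C22 they went from 437 to 1188 with a slope, 819 with 2 degrees of freedom and 939 with DESeq2, and in C22 from 115 to 66 with 2 degrees of freedom, 53 with the log2 CPM filter and 493 with DESeq2. Differences in course went from 4 to 2 (2 degrees of freedom), 2 (log2 CPM filter) and 66 (DESeq2) for C3 and WT-C3, from 8 to 71 (slope), 26 (2 degrees of freedom), 0 (log2 CPM filter) and 192 (DESeq2) for C22 and WT-C22, and from 9 to 1 (slope), 2 (2 degrees of freedom) and 131 (DESeq2) for C3-cJunKO and C3.

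Leaving out each library in turn gave 1 to 4 members in C3 against WT-C3, with 2 without the C3 library of 9 weeks and 4 without that of 12 weeks, 4 to 6 in C22 against WT-C22, 4 to 5 between the wildtypes, 1 to 2 for the difference between the models and 0 to 1 for age in C3. Jag2 passed in that difference without the C3 library of 3 weeks (adjusted p = 0.0485 by edgeR). Genes called ran from 2245 to 3683 in C3, 5058 to 6027 in C22, 43 to 98 in C3-cJunKO against C3, 2301 to 3384 against WT-C3, 2307 to 3022 between the wildtypes and 1312 to 1951 for the difference. For age they ran from 0 to 122 in WT-C3, 103 to 1155 in C3, 10 to 195 in C3-cJunKO, 4 to 366 in WT-C22 and 1 to 135 in C22, and for differences in course from 0 to 14 (C3), 0 to 12 (C22) and 0 to 19 (C3-cJunKO). Log2 fold changes that turned in sign ran from -0.092 to 0.079 for Notch3, -0.022 to 0.17 for Jag2 and -0.11 to 0.22 for Dll1 in C3, and from -0.079 to 0.054 for Hey1 in C22. In the difference they ran from -0.053 to 0.076 for Notch1 and -0.096 to 0.083 for Jag1. In C3-cJunKO against C3 they ran from -0.022 to 0.15 for Notch3, -0.15 to 0.051 for Jag2 and -0.26 to 0.057 for Hes1, and against WT-C3 from -0.045 to 0.021 for Notch2, -0.0038 to 0.095 for Notch3, -0.061 to 0.071 for Jag1 and -0.048 to 0.11 for Jag2. Between the wildtypes Dll1 ran from -0.10 to 0.22.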
